A study of Homo sapiens with 2 samples.

Results

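The mitochondrial ribosomal protein genes are the protein-coding genes whose symbols are MRPL or MRPS followed by a number. The RefSeq gene table used was that of GRCh38.p14, the assembly of the hg38 coordinates in the peak lists, and 77 of its 20037 protein-coding genes had such a symbol. They were examined in peak lists of acetylated lysine 27 of histone H3 (H3K27ac) from F36P, a human cell line established from an erythroid leukaemia. The ERG library came from cells that overexpressed ERG, an ETS-family transcription factor, from the retroviral construct MSCV-PIG-AM-ERG. The Vector library came from cells carrying the empty MSCV-PIG construct, labelled wild type. Before the assay both cultures had received 4 days of puromycin, at 1 µg/ml, which kills cells without the construct. Each group held 1 library, so values given for ERG cells and Vector cells are those of a single library each, no difference has a replicate check and no test between the groups was made. A member counted as having an end peak when a peak of that library overlapped the interval within 1 kb of either end of its gene record.

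The mitochondrial ribosome translates the few proteins that the mitochondrial genome encodes, which are core subunits of the respiratory chain. Its RNAs come from mitochondrial DNA, whereas its proteins are encoded by nuclear genes, made in the cytosol and imported. Some of these proteins have counterparts in the bacterial ribosome and others are specific to mitochondria. H3K27ac marks active promoters and enhancers, and at a promoter it lies on the nucleosomes around the start site. Erythroid cells depend on mitochondria for heme synthesis and lose them at the end of their maturation. Promoters of nuclear genes for mitochondrial proteins are known for binding sites of NRF1, of YY1 and of the ETS-family factor GABP.

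An H3K27ac end peak was found at 71 of the 77 genes in ERG cells and at 41 in Vector cells. The shares were 92.2% (95% interval 83.8 to 97.1) in ERG cells and 53.2% (41.5 to 64.7) in Vector cells, against 45.8% and 30.5% of all protein-coding genes. All 41 genes with a Vector-library peak also had an ERG-library peak. Peaks of the ERG library without a Vector-library partner lay at 30 members, 39.0% (28.0 to 50.8), against a background of 15.6% of all genes, and the reverse held for 0 members, against 0.354%. Neither library had one at the remaining 6. Among the 36 members without a Vector-library peak, 83.3% (67.2 to 93.6) had one in ERG cells, where the background was 22.5% of 13917 genes. The same share was 73.7% of 19 cytosolic ribosomal protein genes and 76.9% of 13 genes of complex I of the respiratory chain. Both lie inside the members' interval, so this share did not set the members apart from these related genes. With the ERG list cut to its top-scoring peaks, as many as the Vector list holds, 13 members had a peak in ERG cells alone (16.9%, against 6.15% of all genes) and 2 in Vector cells alone (2.60%, against 3.66%). Intervals of shares are exact binomial ones and cover counting error only. In chromatin from a whole culture, a mark on fewer cells and less of the mark per cell cannot be told apart.

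A start window can reach beyond the peak of its gene. The start windows below are those of members with the strongest peaks. For each class, shared by both libraries or found in ERG cells alone, they are the 3 members with most ERG-library fragments that have a RefSeq window. MRPL46 is added because it shares its promoter with MRPS11, and MRPL44 because its peak lies at a start inside the gene record. Both were chosen after their values were seen. Each window runs 5′ to 3′ on the gene's strand from 250 bases before the start site to 50 after it, from RefSeq GRCh38.p14. Capitals mark exact matches to the ETS core CCGGAAG on either strand and to the YY1 motif AAGATGGCG on either strand. On the opposite strand the ETS core reads CTTCCGG, and the letters AAG can belong to both motifs.
MRPS7, chr17:75261629-75261928, plus strand: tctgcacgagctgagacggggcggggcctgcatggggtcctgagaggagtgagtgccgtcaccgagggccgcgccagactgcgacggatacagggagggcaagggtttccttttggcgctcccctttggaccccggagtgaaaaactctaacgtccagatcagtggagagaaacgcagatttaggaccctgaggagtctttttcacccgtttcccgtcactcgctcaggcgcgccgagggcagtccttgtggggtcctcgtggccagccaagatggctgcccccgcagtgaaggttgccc
MRPL40, chr22:19432295-19432594, plus strand: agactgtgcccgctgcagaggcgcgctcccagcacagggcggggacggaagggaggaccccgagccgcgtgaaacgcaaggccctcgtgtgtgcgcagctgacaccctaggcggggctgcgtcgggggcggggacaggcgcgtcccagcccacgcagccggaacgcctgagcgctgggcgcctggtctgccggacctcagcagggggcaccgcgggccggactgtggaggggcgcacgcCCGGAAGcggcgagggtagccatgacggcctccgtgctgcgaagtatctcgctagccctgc
MRPS5, chr2:95121954-95122253, minus strand: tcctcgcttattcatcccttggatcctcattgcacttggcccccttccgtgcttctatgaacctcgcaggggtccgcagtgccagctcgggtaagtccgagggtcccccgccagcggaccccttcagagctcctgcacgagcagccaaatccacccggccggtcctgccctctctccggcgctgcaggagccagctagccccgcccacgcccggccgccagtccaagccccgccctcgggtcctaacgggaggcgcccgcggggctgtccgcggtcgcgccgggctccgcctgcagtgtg
MRPL48, chr11:73787624-73787923, plus strand: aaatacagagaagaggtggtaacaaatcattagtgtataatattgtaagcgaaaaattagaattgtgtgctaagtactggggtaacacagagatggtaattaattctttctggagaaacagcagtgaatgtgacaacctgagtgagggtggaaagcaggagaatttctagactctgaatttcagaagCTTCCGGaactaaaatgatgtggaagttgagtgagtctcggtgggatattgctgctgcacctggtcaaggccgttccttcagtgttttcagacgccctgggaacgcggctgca
MRPL27, chr17:50373135-50373434, minus strand: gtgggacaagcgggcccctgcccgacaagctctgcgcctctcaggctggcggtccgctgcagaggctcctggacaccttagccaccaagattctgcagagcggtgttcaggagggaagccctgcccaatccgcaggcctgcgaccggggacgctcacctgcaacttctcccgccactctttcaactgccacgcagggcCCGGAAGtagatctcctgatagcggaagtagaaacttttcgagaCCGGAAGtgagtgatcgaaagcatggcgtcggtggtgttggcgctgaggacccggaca
MRPS12, chr19:38930694-38930993, plus strand: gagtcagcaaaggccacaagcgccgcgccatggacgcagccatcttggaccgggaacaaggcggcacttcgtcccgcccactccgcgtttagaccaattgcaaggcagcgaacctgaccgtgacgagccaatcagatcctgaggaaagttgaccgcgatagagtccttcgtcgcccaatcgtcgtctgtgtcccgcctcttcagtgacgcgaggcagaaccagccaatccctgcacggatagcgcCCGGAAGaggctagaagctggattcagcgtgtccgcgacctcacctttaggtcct
MRPL46, chr15:88467339-88467638, minus strand: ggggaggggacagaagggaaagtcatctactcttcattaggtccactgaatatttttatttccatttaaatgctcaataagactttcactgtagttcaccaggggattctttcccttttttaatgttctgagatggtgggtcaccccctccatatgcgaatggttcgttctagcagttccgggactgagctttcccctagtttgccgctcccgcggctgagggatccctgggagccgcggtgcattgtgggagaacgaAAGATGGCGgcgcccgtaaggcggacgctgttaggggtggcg
MRPL44, chr2:223957213-223957512, plus strand: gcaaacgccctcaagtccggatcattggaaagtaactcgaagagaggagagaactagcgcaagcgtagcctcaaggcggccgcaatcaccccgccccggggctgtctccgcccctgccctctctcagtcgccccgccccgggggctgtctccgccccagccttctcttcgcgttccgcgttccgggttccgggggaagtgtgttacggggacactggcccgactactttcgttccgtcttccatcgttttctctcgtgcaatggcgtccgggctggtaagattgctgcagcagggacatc
The windows of MRPL40, MRPL48, MRPL27 and MRPS12 hold an ETS core, and that of MRPL27 holds 2. The ERG-library peak of MRPL40 stopped 161 bp before its start, so the core marked in that window lies outside the peak. The window of MRPL46 holds the YY1 motif beginning 8 bases after the start base. The windows of MRPS7, MRPS5 and MRPL44 hold neither string of letters.

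The libraries differed in depth. The ERG list had 19671 peaks and the Vector list 9161. The number of fragments under each summit was recovered from the deposited fold and p-value. It came out whole for 19650 ERG-library and 9150 Vector-library peaks. The genome background was 2.31 fragments in ERG cells and 1.60 in Vector cells, a ratio of 1.44 that is used as the relative depth. The weakest peak held 9 fragments in the ERG list and 8 in the Vector list. Of 9 erythroid marker genes, 8 had an end peak in ERG cells and 7 in Vector cells, against 45.8% and 30.5% of all protein-coding genes. Of 5 myeloid markers, 2 had one in ERG cells (MPO and LYZ) and 0 in Vector cells. The remaining blood markers with one were the platelet integrin gene ITGA2B in both libraries and the B-cell gene CD79A in ERG cells alone. Of 3 neuron, 3 fibroblast and 3 epithelial markers, 0 had one in either library. The peak lists hold no measure of ERG protein, and the part that depth or these markers had in the members' results was not tested.

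**Figure D1:**
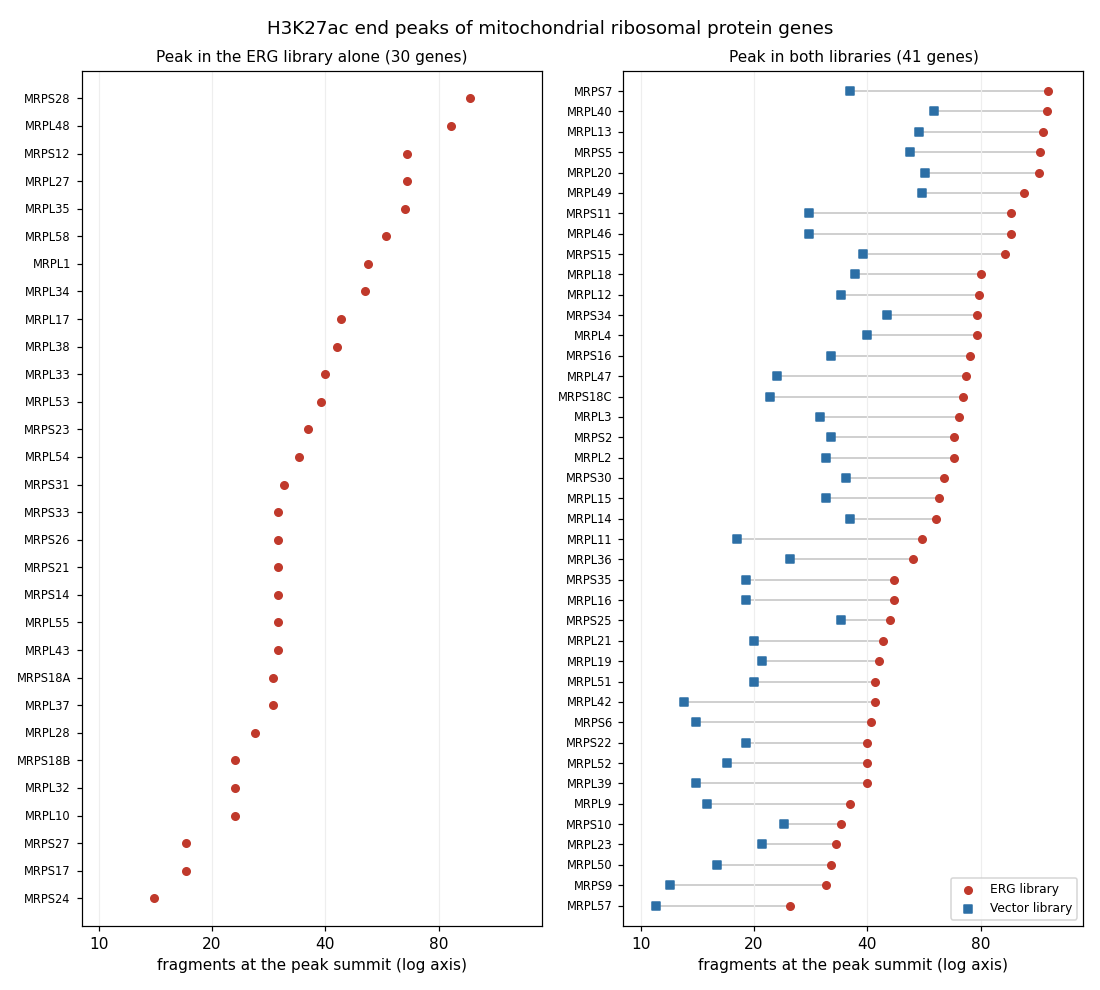
Fragments at the summit of the end peak (log axis) for each member, with the ERG library as red circles and the Vector library as blue squares. The left panel shows the 30 members with a peak in ERG cells alone, between 14 and 97 fragments, and the right panel the 41 with a peak in both, where the red circle is the higher of each pair.

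Vector-library peaks covered the subunits of the ribosome to about the same share. The large subunit joins the amino acids and the small subunit reads the messenger RNA. In ERG cells 45 of 51 large-subunit genes had an end peak (88.2%), and in Vector cells 27 did (52.9%). All 26 small-subunit genes had one in ERG cells (100%, 86.8 to 100), and 14 did in Vector cells (53.8%). The ERG library alone had a peak at 18 large-subunit and 12 small-subunit genes. The 6 members without an end peak thus all encode large-subunit proteins, and the intervals of the ERG-library shares of the subunits overlap. Of 46 members assigned a bacterial counterpart, 43 had a peak in ERG cells and 27 in Vector cells. Of the 31 assigned as specific to mitochondria, 28 had one in ERG cells and 14 in Vector cells. The place of MRPL55 in the first of these groups is in doubt. It had a peak in ERG cells alone, so moving it would alter the ERG-library counts by that gene and leave the Vector-library counts unchanged.

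At the 41 members acetylated in both libraries, the ERG-library peaks held more fragments in every case. Their summits held between 25 and 121 fragments in ERG cells, with a median of 62, and between 11 and 60 in Vector cells, with a median of 28. The ratio of the ERG-library to the Vector-library number had a median of 2.20 and ran between 1.35 and 3.43. Over all 6021 genes with a shared end peak its median was 2.15, so the members lay near the middle of the genome-wide shift. The exact conditional interval of the ratio lay above the relative depth of 1.44 at 17 of 41 members, 41.5%, against 44.2% of all genes, and below it at 0. The median was 2.27 over 68 genes of the cytosolic ribosome and 2.06 over 23 genes of complex I of the respiratory chain.

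The highest ERG-library summits belonged to genes of both subunits. MRPS7, a small-subunit protein with a bacterial counterpart, had 121 fragments in ERG cells (chr17:75261040-75262412) against 36 in Vector cells (chr17:75261257-75261966), a ratio of 3.36 (2.30 to 5.02). It stood in the top 4.00% of the ERG list by deposited score and in the top 51.0% of the Vector list. MRPS5, also a small-subunit protein, had 115 against 52 fragments, 2.21 (1.58 to 3.13), and stood in the top 1.44% and 3.69% of the ERG and Vector lists. Within the Vector list MRPS5 thus stood far above MRPS7. MRPL40 had 120 fragments in ERG cells and 60 in Vector cells, a ratio of 2.0 (1.46 to 2.77). MRPL13, a large-subunit protein with a bacterial counterpart, had 117 and 55 fragments in the ERG and Vector libraries. MRPL20 had 114 and 57 in the same order, and MRPL49 had 104 and 56. All 6 of these peaks were present in both libraries.

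The ratio was highest where MRPL46 and MRPS11 start back to back, with 320 bp between their start sites. MRPL46 belongs to the large subunit and MRPS11 to the small subunit. They share 1 peak and so 1 measurement, with 96 fragments in ERG cells (chr15:88467146-88468089) against 28 in Vector cells (chr15:88467197-88467874), 3.43 (2.23 to 5.43). With MRPS7, these were the 3 members whose interval lay above the all-gene median of 2.15, as did that of 4.93% of the 6021 genes. MRPS18C had 72 against 22 fragments (3.27, 2.01 to 5.54) and MRPL42 had 42 against 13 (3.23, 1.70 to 6.56). MRPL47 had 73 against 23 (3.17, 1.96 to 5.32). The intervals of these last 3 genes include the median of all genes.

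The lowest ratios were those of MRPS25 and MRPS10, both of the small subunit. MRPS25 had 46 fragments in ERG cells against 34 in Vector cells, 1.35 (0.85 to 2.17), and MRPS10 had 34 against 24, 1.42 (0.82 to 2.5). These were the members whose ratio lay under the relative depth of 1.44, and the other 39 lay above it. MRPL23, whose protein lines the exit of the nascent chain tunnel, had 33 against 21 (1.57). The next were MRPL14 with 61 against 36 (1.69), MRPS34 with 78 against 45 (1.73) and MRPS30, a large-subunit protein despite its symbol, with 64 against 35 (1.83). All 6 intervals include the all-gene median.

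Peaks in ERG cells alone spanned most of the range of strength seen at shared peaks. Their summits held between 14 and 97 fragments, with a median of 30.5, against a median of 30 over all genes with an end peak in ERG cells alone. MRPS28, a small-subunit protein, was the strongest with 97 fragments over 748 bp, in the top 4.44% of the ERG list, and the Vector list had no peak at its ends. MRPL48 followed with 86 fragments over 1430 bp (chr11:73787272-73788701). MRPS12, at the decoding centre, had 66 fragments over 1013 bp. MRPL27, whose bacterial counterpart reaches into the peptidyl transferase centre, had 66 over 918 bp. MRPL35 had 65 fragments and MRPL34 had 51, over local backgrounds of 22.6 and 21.2 fragments, so their folds of 2.79 and 2.35 were low. MRPL58, a peptidyl-tRNA hydrolase built into the large subunit, had 58 fragments, and MRPL1, the protein of the stalk beside the tRNA exit site, had 52 over 1547 bp. These 8 were the members of this class with at least 50 fragments, compared with 24 of the members found in both libraries.

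The remaining members of the class held fewer than 50 fragments. MRPL17 had 44, MRPL38 had 43, MRPL33 had 40, MRPL53 had 39 over 1613 bp, MRPS23 had 36, MRPL54 had 34 and MRPS31 had 31. MRPL43, MRPL55, MRPS14, MRPS21, MRPS26 and MRPS33 had 30 each. MRPL37 and MRPS18A had 29, MRPL28 had 26 over 312 bp, and MRPL10, the stalk protein that holds MRPL12, had 23, as did MRPL32 and MRPS18B. The weakest were MRPS17 and MRPS27 with 17 and MRPS24 with 14. Of the 30 genes, 27 still passed when the ERG library was thinned by 2.14, the median ratio at shared peaks with each pair counted once, a setting chosen after seeing the data. MRPL28, MRPS24 and MRPS27 did not. Of all genes with an end peak in ERG cells alone, 77.7% passed. Thinned by the relative depth of 1.44, all 30 still passed, as did 94.6% of all such genes. No peak was called anew from thinned reads, so passing does not mean that a peak would be called in a library of that depth.

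Among members, the weakest ERG-library peaks were matched in Vector cells least often and the strongest most often. Below 30 fragments 1 of 10 members had a Vector-library peak (10%, 0.253 to 44.5), against 24.2% of all genes with such an ERG-library peak. Between 30 and 49 fragments 16 of 29 did (55.2%, against 57.0% of all genes). Between 50 and 69 fragments 7 of 13 did, 53.8% (25.1 to 80.8), against 80.5%. At 70 or more 17 of 19 did (89.5%, 66.9 to 98.7, against 94.4%). The members' share lay below that of all genes in each range, and the share of all genes lay inside each interval of the members. The exceptions at 70 or more fragments were MRPS28 and MRPL48.

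**Figure D2:**
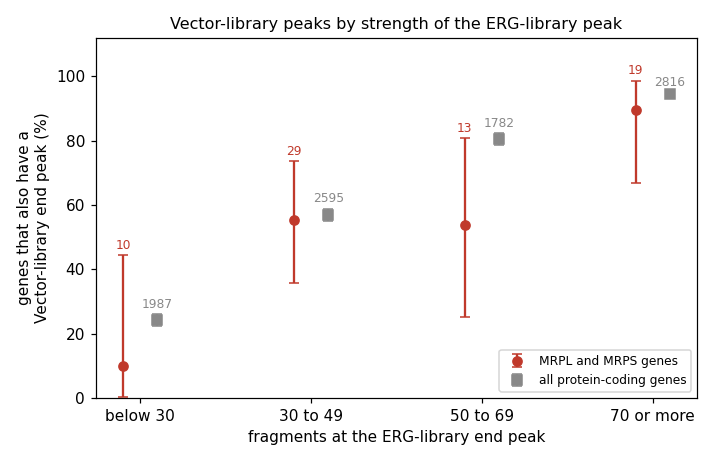
Share of genes with an ERG-library end peak that also had one in Vector cells (percent), by ERG-library fragments at the summit, for the members and for all protein-coding genes, with exact 95% intervals and the number of genes over each point. The members' share was lowest under 30 fragments (10%) and highest from 70 on (89.5%), and between 50 and 69 fragments it was 53.8% for members and 80.5% for all genes.

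The 6 members without an end peak in either library were MRPL22, MRPL24, MRPL30, MRPL41, MRPL44 and MRPL45. MRPL22 and MRPL24 have bacterial counterparts near the exit tunnel of the large subunit, and MRPL45 lies at the tunnel exit and faces the inner membrane. The nearest ERG-library peak lay 81.7 kb from the ends of MRPL22, 7.57 kb from those of MRPL24 and 40.1 kb from those of MRPL45. It lay 25.3 kb away for MRPL30, 14.9 kb for MRPL41 and 5.54 kb for MRPL44. The nearest Vector-library peak lay at 381 kb for MRPL45 and 53.1 kb for MRPL41, and within 1 kb of the ERG-library distance for the other 4. MRPL44 was missed by the rule and not by the peak caller. Its RefSeq start at 223957463 on chromosome 2 lies 6609 bp inside the gene record. An ERG-library peak of 36 fragments covers that start (chr2:223957338-223958145), with its summit 195 bp downstream, and the Vector list has none there. Counted by RefSeq starts, MRPL44 joins the genes with a peak in ERG cells alone.

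The 1 kb limit decided few members. MRPL36 counted through a peak with 53 fragments in ERG cells and 25 in Vector cells. It lay 1570 bp from MRPL36's own start in ERG cells, where it covered an end of the neighbour NDUFS6, and 1622 bp from it in Vector cells. A further ERG-library peak with 36 fragments lay 49 bp from that start. A Vector-library peak with 20 fragments overlapped that further ERG-library peak, so both libraries had a peak near the start. The Vector-library one lay 1095 bp from the nearer end of the record, just outside the limit. MRPL2 counted as shared through a peak beyond the lower end of its record, 186 bp away in ERG cells and 197 bp in Vector cells. At its upper end the ERG library alone had a peak, with 25 fragments. No RefSeq start was matched for MRPL2, so its start was not placed at either end. MRPL38 had a Vector-library peak of 30 fragments at 1691 bp, outside the limit and at the end of TRIM65, and so counts as ERG library alone. Just inside the limit were MRPL54 at 667 bp and MRPS18B at 601 bp in ERG cells, and MRPS2 at 650 bp in ERG cells and 756 bp in Vector cells. The MRPL54 peak covered an end of the neighbour APBA3. PPP1R10 starts 597 bp from MRPS18B on the other strand, on the side where the MRPS18B peak lay. These peaks therefore cannot be given to MRPL54 or MRPS18B alone. MRPS18B lies in the part of chromosome 6 that has alternative copies in the assembly. Those copies carried 207 ERG-library and 28 Vector-library peaks, so reads there can be split between copies.

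Acetylated stretches were wider in ERG cells at all but 1 of the shared members. Peak width had a median of 826 bp at 71 members in ERG cells (312 to 2216) and 531 bp at 41 members in Vector cells (299 to 1273). The corresponding medians over all genes were 904 and 572 bp. At the 41 shared members the width ratio had a median of 1.56, and 1.58 over all genes. The exception was MRPS16, with 803 bp in ERG cells and 1069 bp in Vector cells. The widest ERG-library peaks were those of MRPL18 (2216 against 558 bp in Vector cells) and MRPL12 (1878 against 921 bp). MRPL12 is the stalk protein that recruits translation factors. MRPL53 followed with 1613 bp in ERG cells alone, then MRPS18C (1577 against 372 bp) and MRPL40 (1550 against 543 bp). A peak's width depends on where its flanks drop under the caller's limit, and so on depth.

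The end peaks lay near start sites, and most summits lay beside the starts. RefSeq start windows were matched for 69 members, leaving out MRPL2, MRPL10, MRPL13, MRPL15, MRPL21, MRPL23, MRPL35 and MRPS28. Of the 63 with an ERG-library end peak, 62 had it within 1 kb of a start and 42 had it across the start itself. Of 36 in Vector cells, 35 lay within 1 kb and 13 crossed a start. A start is usually an end of the gene record, so the counts within 1 kb are largely set by the end-peak rule. No share of all genes is given for the counts within 1 kb or across a start, so nothing is concluded from them. The summit lay downstream of the start at 36 members and upstream at 27 in ERG cells, and downstream at 19 and upstream at 17 in Vector cells. Its distance had a median of 239 bp in ERG cells and 270 bp in Vector cells. A summit within 50 bp of a start was found at 0 members in ERG cells and 4 in Vector cells, compared with 2.41% and 2.18% of all genes in the ERG and Vector libraries. The nearest summit in ERG cells was that of MRPS5, 52 bp upstream, and in Vector cells that of MRPS11, 30 bp upstream. The farthest was that of MRPL36, 1800 bp away in ERG cells and 1879 bp in Vector cells. MRPS5 has RefSeq starts at 95121808 and 95122003 on chromosome 2. Its 52 bp is counted from 95121808, whereas the window printed above belongs to 95122003.

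**Figure D3:**
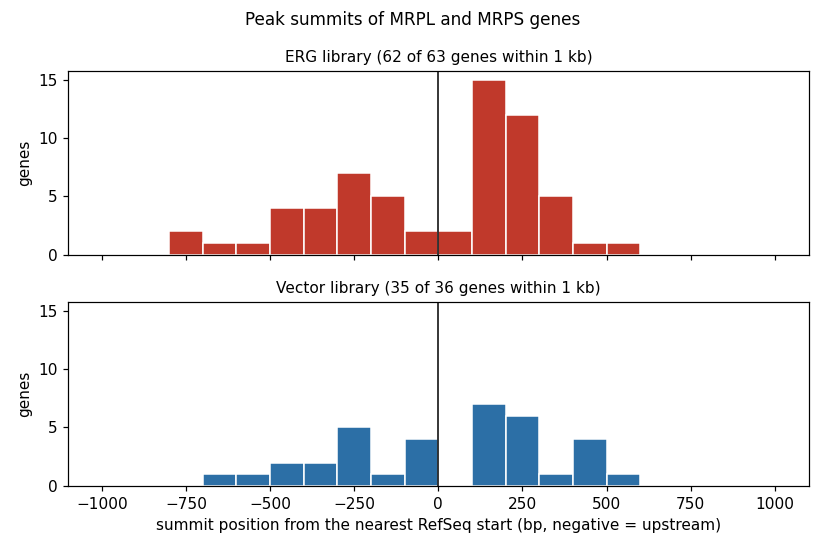
Number of members by the position of the end peak's summit relative to the nearest RefSeq start (100-bp bins, downstream positive), with the ERG library above and the Vector library below. The bars gather on both sides of the start. The end-peak rule largely sets that 62 of 63 ERG-library and 35 of 36 Vector-library genes had their peak within 1 kb of a start.

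At shared members the summit lay at nearly the same place in both libraries. It moved by a median of 71 bp, against 65 bp over all genes, and by at most 100 bp at 26 of 41 members. The largest move was 441 bp, at MRPS15. There the ERG-library summit lay at −229 bp, upstream of the start, and the Vector-library summit 212 bp downstream of it, and this was the single one of the 36 shared members with a RefSeq start whose summits lay on opposite sides.

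Many members stand back to back with another gene, so their peak cannot be given to 1 gene alone. A start on the other strand, pointing away within 1 kb, was found for 20 of 69 members, 29.0% (18.7 to 41.2), against 12.3% of 15843 genes and 20.9% of 7663 genes with an ERG-library end peak. It was found for 12 of 36 members with a peak in both libraries and 7 of 27 with one in ERG cells alone. MRPL27 starts 45 bp from EME1, a DNA repair nuclease gene, and MRPL49 starts 49 bp from FAU, which encodes a cytosolic ribosomal protein. MRPS12 starts 181 bp from SARS2, the mitochondrial seryl-tRNA synthetase gene. MRPS7 starts 273 bp from GGA3, MRPL18 210 bp from TCP1 and MRPL32 202 bp from PSMA2. In ERG cells, the peak of 20 of 71 members covered an end of another protein-coding gene (28.2%, against 20.0% of all genes). In Vector cells this held for 4 of 41 members (9.76%, against 10.8%). Among the 57 members with no such neighbour in a peak, 51 had an ERG-library and 28 a Vector-library end peak, and 23 had one in ERG cells alone. Members without a peak could not be left out by this rule, so these counts are not independent of it. No share of all genes under the same rule is given, so nothing is concluded from them.

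Inside the gene records, further peaks were few. MRPL23 had overlapping peaks about 21 kb inside its record, with 21 fragments in ERG cells and 23 in Vector cells. MRPS27 and MRPL48 had 1 each in ERG cells alone, with 18 and 16 fragments. The end peaks of the same genes had 33 fragments in ERG cells and 21 in Vector cells for MRPL23, and 17 and 86 in ERG cells for MRPS27 and MRPL48.

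Exact matches to the ETS core were frequent in the members' start windows. In the 300-base windows printed above and those of the other members, CCGGAAG was found on either strand for 30 of 69 genes, 43.5% (31.6 to 56.0). The share was 16.5% of all genes with a window and 26.4% of those with an ERG-library end peak. It was 59.3% (38.8 to 77.6) for the 27 members with a peak in ERG cells alone, 36.1% (20.8 to 53.8) for the 36 with a peak in both, and 1 of 6 for those with neither. Over all genes the shares of these classes were 25.6% for the ERG library alone and 26.8% for both libraries, so all genes did not show the members' order, and the members' intervals overlap. On the gene's own strand the core was found for 23.2% of members and 9.36% of all genes. Of 40 separate matches, 34 lay within 100 bp of a start, and 8 genes had more than 1. The core was found for 34.3% of 70 cytosolic ribosomal protein genes and 16.1% of 31 complex I genes. Many ETS-family factors share this core, so a match does not name a factor, and no binding was measured.

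The YY1 motif AAGATGGCG was found for 13 of 69 members, 18.8% (10.4 to 30.1), against 3.21% of all genes and 5.79% of those with an ERG-library end peak. It was found for 19.4% of 31 complex I genes and 8.57% of 70 cytosolic ribosomal protein genes. Of 14 separate matches, 12 were on the gene's strand and 10 lay at or after the start, as in MRPL46 above. These letters hold ATG, so a match after the start can coincide with a translation start. The NRF1 motif, searched as GCGCA directly followed by TGCGC, was found in 1 member, MRPL17 (1.45%, against 1.99% of all genes). The CCAAT box was found for 33.3% (22.4 to 45.7) of members and 42.1% of all genes, a share inside the members' interval. Counted per window, the CCAAT shares were 32.9% for members and 34.7% for all genes. TATAAA was found for 4.35% (0.906 to 12.2) of members and 12.4% of all genes. Among genes with an ERG-library end peak the TATAAA share was 7.49%, inside the members' interval. Of the 69 members, 40 held the ETS, NRF1 or YY1 motif and 29 held none of these letters. The median GC content of the windows was 60.3% for members and 62.3% for all genes. The median ratio of observed to expected CpG was 0.863 for members, 0.840 for genes with an ERG-library end peak and 0.737 for all genes, so base composition was not equal between the sets compared.

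**Figure D4:**
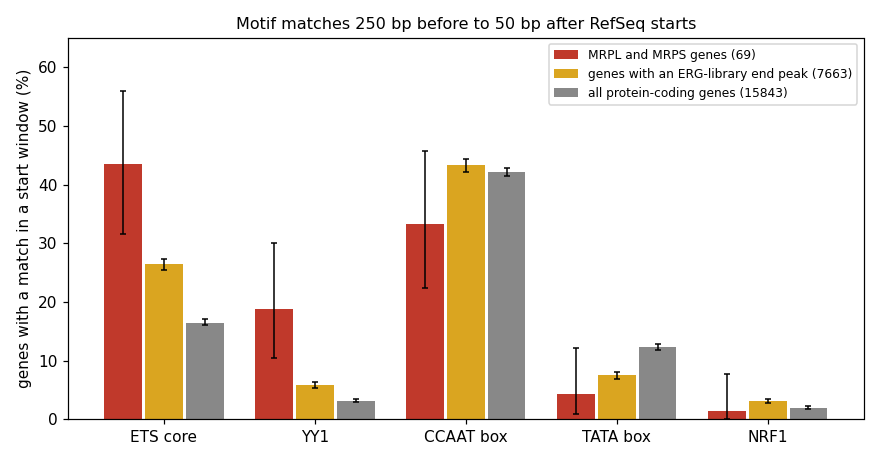
Share of genes (percent) whose 300-base start window holds each motif on either strand, for the 69 members with a window, the genes with an ERG-library end peak and all genes, with exact 95% intervals. The ETS core (43.5%, against 16.5% of all genes) and YY1 (18.8%, against 3.21%) had higher shares in members. The members' interval for the CCAAT box (33.3%, 22.4 to 45.7) includes the 42.1% of all genes. The members' interval for the TATA box (4.35%, 0.906 to 12.2) lies below the 12.4% of all genes but includes the 7.49% of genes with an ERG-library end peak.

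The other genes of mitochondrial translation were counted in the same way. A list of 7 genes of ribosome proteins and associated proteins with other symbols had an end peak in ERG cells at 7 and in Vector cells at 4. DAP3, a small-subunit protein that binds GTP, had 160 fragments in ERG cells against 92 in Vector cells. The small-subunit gene CHCHD1 had 43 fragments in ERG cells alone. OXA1L, the inner membrane insertase that receives new chains from the ribosome, had 35, and KGD4, which encodes a subunit of the oxoglutarate dehydrogenase complex, had 11, both also in ERG cells alone. Of 25 assembly factors, 23 had a peak in ERG cells and 12 in Vector cells. The 11 in ERG cells alone included the ribosomal RNA methyltransferase genes TFB1M (67 fragments) and MRM2 (14) and the GTPase gene NOA1 (61). Of 19 mitochondrial tRNA synthetase genes, 17 had a peak in ERG cells and 8 in Vector cells. The 9 in ERG cells alone included SARS2, whose end lies in the MRPS12 peak, with 66 fragments, and EARS2 with 52.

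Translation factors were the list with a gene on the other side. Of 15, 12 had an end peak in ERG cells and 10 in Vector cells. The initiation factor gene MTIF2 (21 fragments) and the elongation factor genes TUFM (39) and GFM1 (36) had a peak in ERG cells alone. PDF, the peptide deformylase gene, had one in Vector cells alone, with 19 fragments. All 5 genes of mitochondrial transcription had an ERG-library peak and 1 had a Vector-library peak. The polymerase gene POLRMT had 20 fragments and TFAM, which packages and transcribes mitochondrial DNA, had 29, both in ERG cells alone. The 5 lists together had a peak at 64 of 71 genes in ERG cells (90.1%) and 35 in Vector cells (49.3%), against 45.8% and 30.5% of all genes. The ERG library alone had one at 30 of these genes (42.3%, against 15.6% of all genes). Among the 36 list genes without a Vector-library peak, 83.3% (67.2 to 93.6) had one in ERG cells, the same share as among the members.

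Cytosolic ribosomal protein genes had a higher share than the members in Vector cells. Of 87 genes with RPL or RPS symbols, paralogs counted, 82 had an end peak in ERG cells (94.3%) and 68 in Vector cells (78.2%), so 14 had it in ERG cells alone. Of 36 complex I genes, 33 had one in ERG cells (91.7%) and 23 in Vector cells (63.9%). The 3 sets thus lay close together in ERG cells, while in Vector cells the members' share of 53.2% was the lowest of the 3. These shares are descriptions of 1 library each, and no test of their differences was made.

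**Figure D5:**
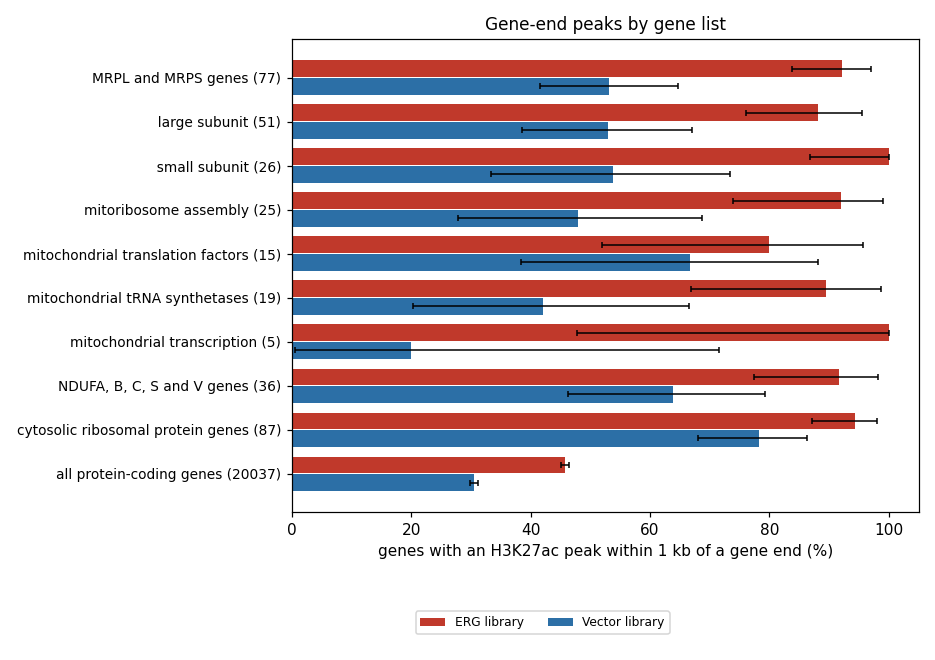
Share of genes with an end peak (percent) in the ERG (red, above) and Vector (blue, below) libraries for the members, their subunits, related gene lists and all protein-coding genes, with exact 95% intervals. The members reached 92.2% in ERG cells and 53.2% in Vector cells, against 45.8% and 30.5% of all genes.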

How the data were processed

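H3K27ac ChIP-seq was performed on F36P cells with chromatin cut by micrococcal nuclease, per the labels' protocols. Bowtie2, MACS2, deepTools and hg38 are named in the submitters' processing notes, without settings. Whether an input library entered is not stated in those notes or in the labels. Each deposited peak list gives, in the standard 10-column layout without a header, a score, a fold enrichment (ratio) and the −log10 p-value and −log10 q-value at the summit. These are the authors' own values per peak, and the deposited score was used only for ranks and filters within a list. The deposited fold and p-value together gave whole fragment numbers, with a tolerance of 0.0001 on the recomputed −log10 p-value. The calculation was tested on simulated data.

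A shared end peak needed an overlap of at least 1 bp, and a gene with several end peaks was described by its highest-scoring overlapping pair or peak. Intervals are exact at 95%, from Python 3.11.15 with SciPy 1.17.1. RefSeq start windows hold 300 bases. Members, gene lists and alternatives were chosen with earlier results of these data known. Genes named are every member with a peak in 1 library alone or in neither, the 6 highest and 6 lowest ratios, the 6 with most ERG-library fragments, the 5 widest peaks, the nearest and farthest summits, and genes of the lists. Alternatives covered the window (500 and 2500 bp), overlap, list length, thinning and start sites.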

Additional observations from a re-analysis of the deposited data

How the results depend on the processing

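The libraries cannot be told apart from the conditions, since each group held 1 library, and no replicate could be left out. No paired analysis was possible because each group held 1 library. Counts were taken as stable within 1.5 times, and shares and medians within their 95% intervals. Across 10 settings, 56 values were stable in this sense and 10 moved. The stable values include some that could not move, such as Vector-library counts and widths where the ERG list alone was altered. The members with an ERG-library end peak, 71 in the full list, were 54 in its upper 50% and 52 in the list cut to the Vector length. With the upper 50% of each list by score, 19 members had a Vector-library end peak, 60.3% of members without one had an ERG-library peak, the median ratio was 2.0 and the median Vector-library width 678 bp. With as many top-scoring ERG-library peaks as the Vector list holds, 13 members had an end peak in ERG cells alone and 2 (MRPL50 and MRPL57) in Vector cells alone, and the ERG-library share among members without a Vector-library peak was 36.1%, against 8.85% of all genes. The median ratio was 1.52 after thinning the ERG library to the Vector background and 1.03 after thinning by the median ratio at shared gene-end peaks, an alternative added after seeing the data. Thinning lowers this ratio by construction. On the gene strand alone the ETS core share was 23.2%. The planned use of the deposited fold in place of fragments gives ranks and no ratio, so it has no value here. The weakest Vector-library peak held 8 fragments, and the weakest at a member held 11. A call also rests on the local background, so no fixed fragment number marks the limit of detection. Acetylation that was not called at this depth cannot be taken as absent.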

Other observations

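Genes for known regulators of mitochondrial biogenesis mostly had end peaks in both libraries. Of 9 such genes, 8 had an end peak in ERG cells and 7 in Vector cells. GABPB1, a subunit of the ETS-family factor GABP, had 185 fragments in ERG cells against 71 in Vector cells, and GABPA, its DNA-binding subunit, had 156 against 76. YY1 had 170 against 78 and NRF1 had 88 against 41. MYC had 110 against 40, PPRC1 had 113 against 49 and ESRRA had 104 against 30. The coactivator gene PPARGC1B had 18 fragments in ERG cells alone, and PPARGC1A had no end peak in either library.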
